A study of Mus musculus with 12 samples.

Results

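Genes for receptors and ligands of the neurotrophin and GDNF families were followed in the embryonic mouse striatum with and without Foxp1. They were Ntrk2, Ntrk3, Ngfr, Bdnf, Gfra1, Gfra2 and Ret, which are 7 of 8 listed genes and 7 of 25428 probe sets in the series, with 1 probe set per gene. Ntf3, the eighth listed gene, was not analysed here. The genes were chosen by name with the genotype differences measured on these arrays already known, so the differences below, with their place in the fit over all probe sets, are a description of these genes and not independent evidence about the family.

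The study compared striata of 12 mouse embryos at embryonic day 18.5, all on the C57BL/6J strain background, with 1 array each. The 6 wild-type embryos are called WT. The other 6, labelled Nestin-Cre (Foxp1-/-) and called cKO here, lacked the forkhead transcription factor Foxp1 where Cre driven by Nestin had acted. Nestin is active in neural progenitors, so microglia and meninges are not its usual targets. Which cell types had lost Foxp1 was not tested. The labels do not say whether WT embryos carried Cre or floxed alleles. Samples were total RNA of both dissected striata, and fewer cells of a type cannot be told apart from less RNA per cell.

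Neurotrophins are secreted growth factors that bind Trk receptor tyrosine kinases. BDNF binds TrkB, the product of Ntrk2, and neurotrophin-3 binds TrkC, the product of Ntrk3. Both also bind p75, the product of Ngfr. Most BDNF in the adult striatum is made elsewhere, largely by cortical neurons, and carried in along axons. GDNF family ligands bind a GFRα co-receptor anchored in the membrane, GFRα1 preferring GDNF and GFRα2 preferring neurturin, and the complex signals through the receptor tyrosine kinase Ret or through NCAM.

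All values are RMA expression values on the log2 scale, on which a difference of 1 is a doubling. The median probe set lay at 5.71 on every array. Values near it lie close to the lower end of the scale, 5.21, where changes are compressed and can be missed. Foxp1 checked the labels: it read 11.14 ± 0.17 (SD, n = 6) for WT against 10.23 ± 0.08 (SD, n = 6) for cKO, and the groups did not overlap. This was a 1.88-fold fall, and the cKO level stayed far above the median probe set. The source of the remaining Foxp1 signal was not tested. The 16 measured markers of striatal projection neurons all lay above 5.71, with an array mean of 9.19 to 9.41 in WT and 9.08 to 9.25 in cKO. WT replicates 3 and 6 correlated least with their own group, and cKO replicate 1 stood apart in the choroid plexus gene Ttr, at 9.96 against 5.39 to 5.57 on the other 11 arrays. The changes of Ntrk3, Ntrk2, Gfra2 and Gfra1 are given below with and without these arrays.

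Of the 7 genes, 1 was lower in cKO, Ntrk3, and 0 were higher at a limma adjusted p below 0.05. Over all probe sets 0.728% passed, 0.429% lower and 0.299% higher. At an unadjusted p below 0.05 there were 3 of the 7, Ntrk3 and Ntrk2 lower and Gfra2 higher, and 10.7% of all probe sets. The median change of the 7 was -0.0099 log2 units and that of all probe sets -0.00077. Since the genes were listed with this contrast known, nothing about the family is read from these shares.

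Ntrk3, the gene of the neurotrophin-3 receptor TrkC, fell by 0.31 ± 0.04 (SE) on the log2 scale, or 1.24-fold. From replicate 1 to replicate 6 the WT arrays gave 10.07, 10.04, 10.08, 10.04, 9.98 and 10.26. In the same order, the cKO arrays gave 9.74, 9.72, 9.85, 9.82, 9.74 and 9.72. All 6 cKO arrays lay below the lowest WT array, a separation in this direction that 0.822% of all probe sets showed. The group means were 10.08 ± 0.09 (SD, n = 6) for WT against 9.77 ± 0.05 (SD, n = 6) for cKO. The 95% interval of the log2 change ran from -0.40 to -0.22, and the limma adjusted p was 0.00662.

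One WT array read high for Ntrk3, replicate 6 at 10.26. Without it the log2 change was -0.28 with a limma adjusted p of 0.00153. Without WT replicates 3 and 6 together it was -0.27 (limma adjusted p = 0.00499), and without cKO replicate 1 it was -0.31 (limma adjusted p = 0.0188). In 20 of 22 alternatives the gene passed the threshold. It missed it with the replicate number as a block (log2 change -0.31, adjusted p = 0.0715). It missed it also when the mean level of Neurod6, Neurod2, Tbr1 and Slc17a7, genes of cortical glutamatergic neurons, was a covariate (log2 change -0.28, adjusted p = 0.0575). That mean level lay between 6.10 and 6.68 (WT) or 6.25 and 7.10 (cKO), and its group mean was 0.33 higher in cKO. Over all probe sets, the 185 called fell to 64 with the block and 58 with the covariate. The deviations of the arrays showed no pairing by replicate number, as given in the last section, but a shared litter or batch was not tested. RefSeq lists 2 curated coding transcripts of Ntrk3. The gene is known to encode a full-length kinase and forms without the kinase domain, and 1 probe set cannot tell them apart.

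Ntrk2, the gene of the BDNF receptor TrkB, read 9.45, 9.51, 9.43, 9.59, 9.55 and 9.63 in WT replicates 1 to 6. In cKO replicates 1 to 6 it read 9.45, 9.43, 9.38, 9.49, 9.43 and 9.45. WT replicates 2, 4, 5 and 6 read above every cKO array, but WT replicates 1 and 3 did not, and the groups overlapped. The group means were 9.53 ± 0.08 (SD, n = 6) for WT against 9.44 ± 0.04 (SD, n = 6) for cKO. The log2 change of -0.09 ± 0.03 (SE; 95% interval -0.16 to -0.016) did not pass over all probe sets (limma adjusted p = 0.344). It was -0.068 without WT replicate 6, -0.087 without WT replicates 3 and 6, -0.092 without cKO replicate 1 and -0.13 with the cortical covariate, and it passed in 0 of 22 alternatives. TrkB without its kinase domain is abundant in astrocytes, and RefSeq lists 3 curated coding transcripts of Ntrk2. Among 8 astrocyte markers 0 passed in limma, with 1 lower at an unadjusted p below 0.05, and their array mean lay between 7.12 and 7.29 (WT) or 7.15 and 7.27 (cKO). The part of astrocytes in the Ntrk2 values was not tested.

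Both other neurotrophin genes analysed here, Ngfr and Bdnf, lay at the lower end of the scale in both genotypes. Ngfr, the gene of p75, lay between 5.47 and 5.61 (WT) or 5.50 and 5.64 (cKO), with a log2 change of 0.017 ± 0.028 (SE; limma adjusted p = 0.890). p75 marks cholinergic neurons of the basal forebrain, and the cholinergic markers gave 0 calls among 7 measured genes, in limma also 0 at an unadjusted p below 0.05. Chat, the acetylcholine-synthesizing enzyme, averaged 5.50 in WT and 5.51 in cKO. The transcription factor Lhx8 averaged 6.87 and 6.85. Bdnf, the ligand of TrkB, lay between 5.50 and 5.52 (WT) or 5.48 and 5.52 (cKO), with a log2 change of -0.0099 ± 0.0093 (SE; limma adjusted p = 0.761). A difference in Ngfr or Bdnf was not detected.

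**Figure D1:**
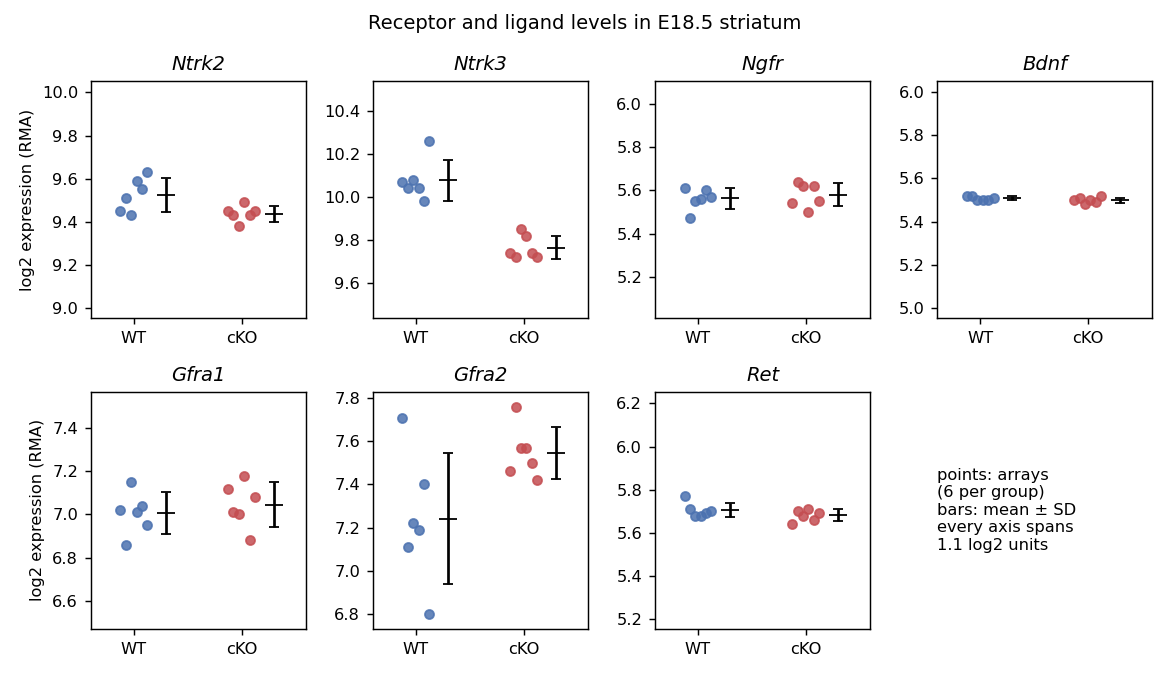
RMA log2 expression of 7 receptor and ligand genes on 6 WT and 6 cKO arrays. Points are arrays, bars are the mean ± SD, and every vertical axis spans the same log2 range, so spreads can be compared but levels between genes cannot. The cKO arrays of Ntrk3 (9.72 to 9.85) lie below all its WT arrays (9.98 to 10.26), while Gfra2 spreads widely in WT (6.80 to 7.71).

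Gfra2, the gene of the neurturin co-receptor, had about the same size of change as Ntrk3 in the other direction, with far more spread. From replicate 1 to replicate 6 the WT arrays gave 7.71, 7.11, 7.22, 7.19, 7.40 and 6.80. In the same order, the cKO arrays gave 7.46, 7.76, 7.57, 7.57, 7.50 and 7.42. WT replicate 1 lay among the cKO arrays, whereas the other 5 WT arrays lay below all 6 cKO arrays. The group means were 7.24 ± 0.30 (SD, n = 6) for WT against 7.55 ± 0.12 (SD, n = 6) for cKO. The log2 change was 0.31 ± 0.12 (SE; 95% interval 0.034 to 0.58) and did not pass (limma adjusted p = 0.383). It was 0.40 without WT replicate 1 (limma adjusted p = 0.109), 0.22 without WT replicate 6 and 0.19 without WT replicates 3 and 6. Without cKO replicate 1 it was 0.32 and with the cortical covariate 0.36, and it passed in 0 of 22 alternatives.

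Gfra1, the gene of the GDNF co-receptor, lay between 6.86 and 7.15 on the WT arrays and between 6.88 and 7.18 on the cKO arrays. The group means were 7.01 ± 0.10 (SD, n = 6) for WT against 7.05 ± 0.10 (SD, n = 6) for cKO. The log2 change was 0.04 ± 0.05 (SE), its 95% interval ran from -0.08 to 0.16, and the limma adjusted p was 0.849. It was 0.062 without WT replicates 3 and 6 and 0.025 without cKO replicate 1. Leaving out other single arrays gave 0.011 without WT replicate 2, 0.014 without cKO replicate 4, 0.069 without WT replicate 3 and 0.073 without cKO replicate 5, and the gene passed in 0 of 22 alternatives. Ret, the receptor tyrosine kinase shared by all GDNF family ligands, lay between 5.68 and 5.77 (WT) or 5.64 and 5.71 (cKO). Its log2 change was -0.025 ± 0.017 (SE; limma adjusted p = 0.664). Ret thus lay at the median probe set, and a change in it was not detected. NCAM, the other route for GDNF signals, is encoded by Ncam1, which averaged 12.03 in WT and 12.05 in cKO with a log2 change of 0.017 ± 0.021 (SE; limma adjusted p = 0.828).

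RefSeq promoter windows on the GRCm38.p6 assembly, each from 250 bases before to 50 after an annotated start, were at hand for 4 of the 7 genes, with 10 windows in all. They were searched on both strands for the forkhead core in the forms TGTTTAC or TGTTTAT or TATTTAC or TATTTAT, counting overlapping matches, because the factor missing in cKO is a forkhead protein. A match was found in 1 of the 10 windows, that of Gfra1, and in 15.0% of the 32851 windows of all genes. The 30 bases around it are shown because they hold 2 overlapping matches in a gene whose 2 groups overlapped. They lie within the annotated span of Gfra1, since other transcript models start further upstream. The Ntrk2 window, which had 0 matches, is shown for comparison up to the base before the annotated start of the gene, which lies upstream of the start the window was built on (153 of its 300 bases). Capitals mark the matches, and sequences run 5′ to 3′ on the gene's strand.
Gfra1, chr19:58455492-58455521, minus strand: aagaATAAATAAACAaacactggctactcg
Ntrk2, chr13:58806319-58806471, plus strand: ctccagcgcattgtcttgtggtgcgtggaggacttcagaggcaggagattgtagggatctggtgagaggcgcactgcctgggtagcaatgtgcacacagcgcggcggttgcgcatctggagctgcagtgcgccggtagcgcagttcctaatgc
The full Ntrk2 window had 61.3% G and C and that of Gfra1 54.0%, against a median of 52.7% over all windows. The 7 windows of Bdnf, which has many alternative first exons, and the 1 window of Ngfr held 0 matches. Ntrk3, Gfra2 and Ret are named only. A match is a string of letters and was not tested for binding.

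A list of 20 further ligands, receptors and co-receptors was drawn up by role. Of these 18 were analysed here, and 0 passed in limma. At an unadjusted p below 0.05, 2 were higher and 2 lower. The 2 with the smallest p were Sorl1, a sorting receptor that binds TrkB and directs its traffic, and Nrtn, the gene of neurturin. Sorl1 lay between 6.81 and 7.22 (WT) or 7.29 and 7.41 (cKO). All 6 cKO arrays of Sorl1 lay above every WT array, as in 0.562% of all probe sets. Its log2 change was 0.26 ± 0.06 (SE; limma adjusted p = 0.0815). Sorl1 passed in 3 of 22 alternatives, with dim probe sets left out (limma adjusted p = 0.0322), with a trended and robust prior (0.0477) and without WT replicate 3 (0.0354). In the other 19 it missed. With the replicate block the limma adjusted p was 0.148. With the cortical covariate the log2 change was 0.215 (limma adjusted p = 0.343). Without WT replicates 3 and 6 it was 0.187 (limma adjusted p = 0.0709).

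Sortilin, the product of Sort1, binds the precursors of neurotrophins together with p75, and Sort1 had a log2 change of 0.11 ± 0.04 (SE; limma adjusted p = 0.236). Sorcs3, a relative of sortilin, had one of 0.16 ± 0.09 and Sorcs1 one of -0.0031 ± 0.0687, both with a limma adjusted p above that of Sort1 (0.579 and 0.994).

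Among the GDNF family ligands, Nrtn averaged 5.69 in WT and 5.63 in cKO, a log2 change of -0.06 ± 0.016 (SE; limma adjusted p = 0.156). Gdnf averaged 5.41 in WT and 5.42 in cKO, near the lower end. Artn and Pspn, the genes of artemin and persephin, averaged 5.46 and 5.76 in WT and had limma adjusted p values of 0.992 and 0.770. Ntf5, the gene of the other TrkB ligand, averaged 5.44 in WT and 5.42 in cKO. Gfra4, the persephin co-receptor, had a log2 change of -0.11 ± 0.03 (SE; limma adjusted p = 0.235), and Gfra3 one of -0.017 ± 0.024 (limma adjusted p = 0.848). The ligand genes thus lay near or below the median probe set in both genotypes.

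**Figure D2:**
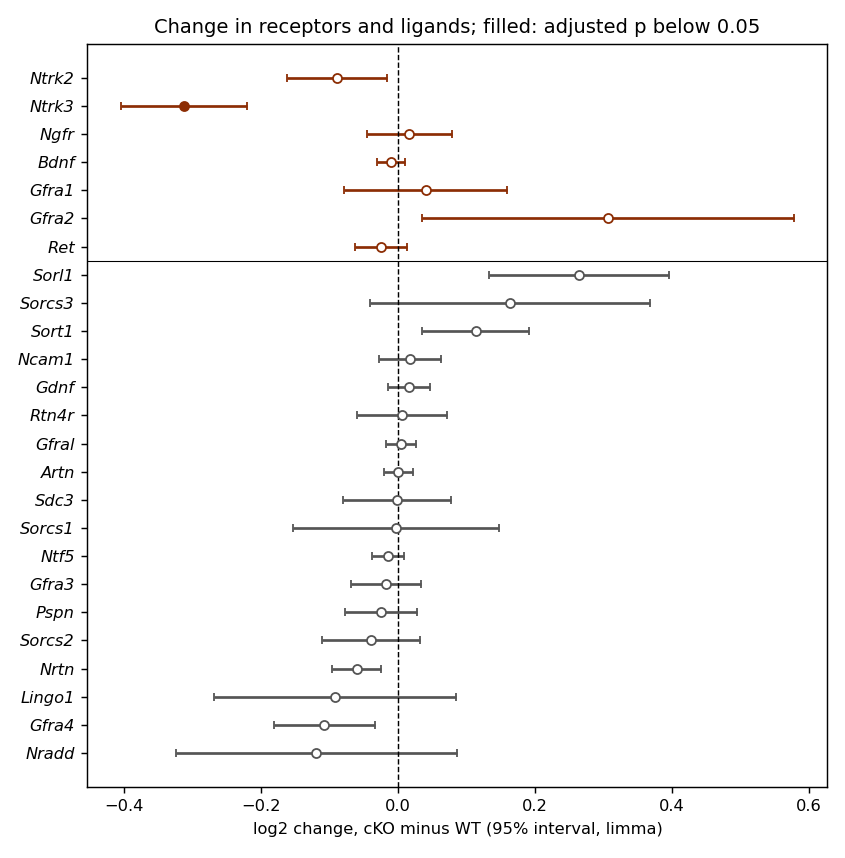
Log2 change, cKO minus WT, of the 7 receptor and ligand genes (top, brown) and 18 further genes of the same pathways (bottom, grey). Bars are limma's 95% intervals, and a filled point passed an adjusted p of 0.05. Ntrk3 at -0.31 is the only filled point, and Gfra2 at 0.31 has the widest interval (0.034 to 0.58).

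Downstream of these receptors, 34 of 41 listed adaptor and kinase genes were analysed here and 0 passed in limma, and at an unadjusted p below 0.05 2 were higher and 5 lower. Frs3, an adaptor of Trk receptors, had a log2 change of -0.11 ± 0.03 (SE; limma adjusted p = 0.174). Mapk7, the kinase ERK5 that carries neurotrophin signals to the nucleus, had one of -0.12 ± 0.04 (SE; limma adjusted p = 0.252). It passed in only 1 of 22 alternatives, without WT replicate 1 (limma adjusted p = 0.0413), its lowest WT array. Among the others the limma adjusted p reached 0.576.

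Of 30 listed feedback and response genes 28 were analysed here and again 0 passed in limma, and at an unadjusted p below 0.05 2 were higher and 2 lower. Etv5, a transcription factor induced by receptor tyrosine kinases, had a log2 change of 0.15 ± 0.04 (SE; limma adjusted p = 0.108). Nr4a1, an early response gene, had one of -0.22 ± 0.06 (SE; limma adjusted p = 0.145). Over the 3 lists 15 of 80 measured genes, or 18.8%, had an unadjusted p below 0.05, 6 higher and 9 lower, beside the 10.7% over all probe sets. The 2 shares come from unlike sets. In the 3 lists 12 of 18, 31 of 34 and 21 of 28 genes lay above the median probe set. The lists were also chosen with earlier results of these data known, so nothing about the pathways is read from this share. With a trended and robust prior 1 of the 80 passed, Sorl1.

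Variation between embryos of one genotype is separate from the difference between genotypes, and was examined after the data had been seen. For the 4 genes above the median level, Ntrk2, Ntrk3, Gfra1 and Gfra2, each array's deviation from the mean of its genotype was compared between genes and with Foxp1 over 12 arrays, in 10 pairs. The largest sizes of r were those of Ntrk3 and Gfra2 with Foxp1. Ntrk3 and Foxp1 had Pearson r = 0.74 (two-sided permutation p = 0.0223 by shuffling arrays within genotypes, adjusted p = 0.199) and Spearman rho = 0.52 (permutation p = 0.111, adjusted p = 0.555). The r was 0.80 within WT and 0.50 within cKO, and 0.69 without WT replicate 6 and cKO replicate 3, the arrays farthest from the median of Ntrk3. Gfra2 and Foxp1 had r = -0.74 (permutation p = 0.0398, adjusted p = 0.199) and rho = -0.62 (permutation p = 0.0601, adjusted p = 0.555). Here r was -0.83 within WT and -0.25 within cKO, and -0.56 without WT replicates 1 and 6. Neither relation passed adjustment over the 10 pairs.

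The remaining 8 pairs had r from -0.57 (Ntrk2 and Gfra2) to 0.55 (Ntrk2 and Foxp1), with adjusted permutation p values from 0.403 to 0.865. Ntrk3 and Gfra2 had r = -0.49 (adjusted permutation p = 0.459), and r was 0.02 without WT replicate 6 and cKO replicate 3. Ntrk2 and Ntrk3 had r = 0.27 (adjusted permutation p = 0.810), and r was -0.32 without WT replicates 3 and 6. None of the 8 pairs passed.

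**Figure D3:**
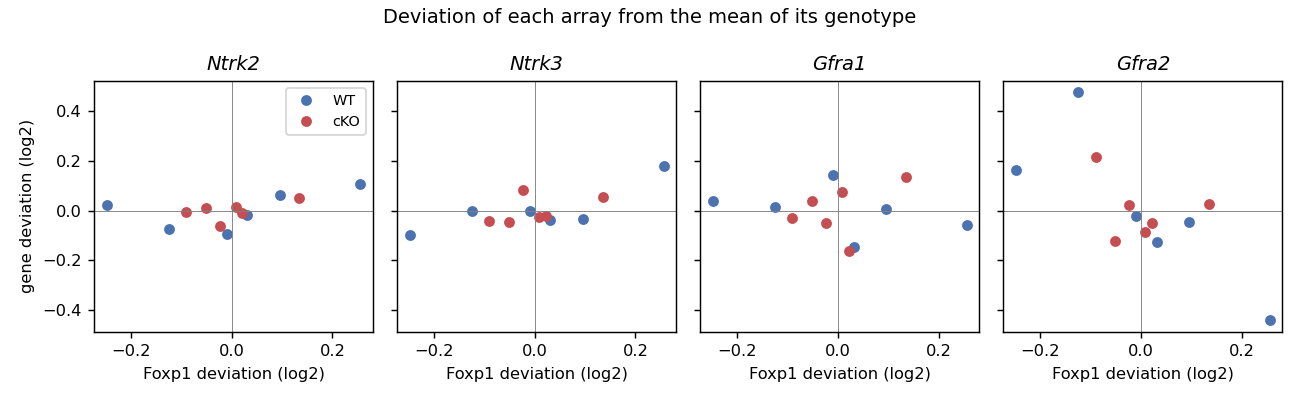
Deviation of Ntrk2, Ntrk3, Gfra1 and Gfra2 from their genotype mean against that of Foxp1, in log2 units, for 6 WT (blue) and 6 cKO (red) arrays. WT replicate 6 is the rightmost point in each panel. It is the highest point for Ntrk3 and the lowest for Gfra2, whose r with Foxp1 were 0.74 and -0.74.

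Genes with the most similar pattern of deviations were sought among 12283 named genes above the median level, by Pearson r over the 12 arrays and with no test. Taking the largest r from so many candidates over 12 arrays gives high values by selection alone, so no link is read from them. For Ntrk3 they were Camsap1 (0.907), Ighj1 (0.898) and Nme4 (0.897). For Ntrk2 they were Rhox6 (0.953), Mir1956 (0.925) and Igsf3 (0.912), and for Gfra2 Car10 (0.960), Nrxn2 (0.945) and Alg2 (0.940). None of these 9 passed in the genotype comparison, with limma adjusted p values from 0.428 to 0.999.

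Markers of other cells that the dissection could hold were read beside these genes. Cortical glutamatergic markers gave 0 calls among 11 measured genes in limma and 2 higher at an unadjusted p below 0.05, and their array mean lay between 6.47 and 6.78 (WT) or 6.44 and 6.98 (cKO). Radial glia and progenitor markers had 0 calls among 12 in limma and 4 higher at an unadjusted p below 0.05, with array means of 8.98 to 9.28 in WT and 9.13 to 9.33 in cKO. Projection neuron markers had 1 of 16 lower, Pde10a, and at an unadjusted p below 0.05 there were 7 lower and 3 higher. Over all probe sets 0.429% were called lower and 0.299% higher in limma, and 10.7% had an unadjusted p below 0.05. Interneuron markers of the medial ganglionic eminence had 1 of 8 higher, Maf, and 1 lower, Cxcr4. Oligodendrocyte lineage (7 measured), endothelial and pericyte (10), meningeal (9), microglial (8), choroid plexus (6) and erythroid (3) markers had 0 calls in limma. At an unadjusted p below 0.05 there were 2 lower oligodendrocyte and 2 lower microglial genes, 2 higher and 1 lower among endothelial genes, and 0 in the meningeal, choroid plexus and erythroid lists. Of the 9 meningeal markers 7 lay at or below the median probe set. The part of these cell types in the values of Ntrk3, Ntrk2 and Gfra2 was not tested. The cortical covariate above cannot separate cortical content from genotype, because its own group mean was 0.33 higher in cKO.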

How the data were processed

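Total RNA from the striata of 12 E18.5 embryos was labelled with biotin, with 1 array per embryo, per the labels' protocols. For 25428 probe sets the authors deposited log2 expression values made with RMA, a method named in the submitters' processing notes. The array model and software versions are not given in the sources used here. Precision is limited by the number of arrays. Symbols came from the platform annotation, updated through RefSeq (24674 named, 754 unnamed). Members and lists were chosen with earlier results of these data known.

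The deposited values of cKO and WT were compared in R 4.3.3 with limma 3.58.1 (lmFit and eBayes, two-sided, no covariates), with Benjamini-Hochberg adjustment over all probe sets and a threshold of 0.05; the fit was tested on simulated data. Named were all members, up to 4 genes past the threshold in each of 3 pathway lists or else the 2 with the smallest p, other listed ligands and receptors, and the 3 genes most like each of 3 members. Genes outside this rule were named as markers. Correlations used 100000 permutations.

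Alternatives were quantile normalization, median centring, cyclic loess, leaving out dim probe sets, another prior, array weights, a replicate block, covariates of 3 Y-linked and 4 cortical genes, a threshold of 0.01, and leaving out each array or, added after seeing the data, 2 arrays.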

Additional observations from a re-analysis of the deposited data

Results flagged for a closer look

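Ntrk3 in WT replicate 6 read 10.26, and the next WT array read 10.08. The gap was 0.650 of the range of the WT group, above Dixon's 95% limit for 6 samples. It was the single case among 26 groups examined (13 genes in 2 genotypes), and chance puts about 1 in 20 groups outside the limit. Without this array the Ntrk3 log2 change was -0.28 (limma adjusted p = 0.00153).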

How the results depend on the processing

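The 185 probe sets called became 278 with dim probe sets left out, 64 with the replicate block, 58 with the cortical covariate, 61 at an adjusted p of 0.01, and 106 to 227 when single arrays were left out (106, 117 and 109 without cKO replicates 2, 3 and 5). Of the 7 genes, 0 were called with the replicate block (Ntrk3 log2 change -0.312) and 0 with the cortical covariate (-0.283); when single arrays were left out, Ntrk3 ran from -0.332 to -0.276 and was called each time. Ngfr changed sign without WT replicate 2, at -0.001, and ran up to 0.031 without other single arrays; the other 6 genes kept their sign in every alternative run. Of the 80 pathway genes 1 passed with dim probe sets left out, 1 with a trended and robust prior and 0 to 1 without single arrays. With dim probe sets left out, Ngfr, Bdnf and Ret had no value. The deviations showed no pairing by replicate number: those of same-numbered arrays correlated from -0.235 to 0.162, and 0 of 12 arrays correlated best with their own number. Whether same-numbered embryos shared a litter or batch was not tested. The cause of the changes was not tested. No alternative moved the median change of all probe sets by as much as 0.01.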
